A study of Mus musculus with 7 samples.

Results

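The machinery that cuts peptides and loads them onto MHC class I was followed through 10 genes, namely Nlrc5, Tap1, Tap2, Tapbp, Tapbpl, Psmb8, Psmb9, Psmb10, Erap1 and B2m. They were named by function, with earlier results of these data known. All 10 were among the 19938 genes measured on 7 Affymetrix arrays of macrophages sorted from the lamina propria of the colon. Il10ra_mKO stands for C57BL/6 mice aged 6 weeks of genotype CX3CR1cre:IL10Raflox/flox, in which Cre made from Cx3cr1 removes the IL-10 receptor chain Il10ra (2 arrays, sort label resident). Their WT controls, also resident, carried CX3CR1gfp/+ on the same background at the same age (3 arrays). Il10_KO stands for IL10-/- CX3CR1gfp/+ mice of that background and age (1 array, sort label CX3CR1hi), and its WT control was a CX3CR1gfp/+ array with the same sort label (1 array). All groups thus carried an altered Cx3cr1 allele, Cre in Il10ra_mKO and GFP elsewhere. No array carried Cre without the floxed gene, so the allele and the deletion cannot be told apart. Whether each array stands for its own mouse is not stated in the labels, and p-values cover only the spread between arrays, which may be technical. RNA kit and sort label go together as far as the protocol numbers the samples, and each mutant was set only against WT of its own sort label.

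MHC class I shows fragments of a cell's own proteins to CD8 T cells. Proteasomes cut the proteins, and in cells exposed to interferon the subunits Psmb8, Psmb9 and Psmb10 take the places of the constitutive subunits Psmb5, Psmb6 and Psmb7. The transporter made of Tap1 and Tap2 carries peptides into the endoplasmic reticulum, where tapasin (Tapbp) and its relative Tapbpl edit what is bound, Erap1 trims the ends, and B2m completes the class I molecule. Nlrc5 is a transactivator of class I genes that is itself induced by interferon. IL-10 restrains activation of macrophages, which in the gut live beside dense bacterial communities.

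Il10ra was at log2 8.05 and 7.04 in the Il10ra_mKO arrays, against 10.56, 10.76 and 11.12 in the resident WT arrays, a difference of -3.27 ± 0.38 (SE, limma adjusted p = 0.243). Il10 itself was at 10.75 in the array labelled Il10_KO and 11.04 in its WT control. The labels do not place its probes relative to the deletion, so the Il10_KO direction rests on the label. The 14 macrophage markers averaged 11.38 and 11.55 in Il10ra_mKO and 11.48 to 11.60 in resident WT, but moved both ways. In 3 of the 14 both Il10ra_mKO arrays lay above all resident WT arrays, where 8.92% of all genes did so. In 4 both lay below, where 8.5% did. Csf1r, the receptor for the growth factor CSF-1, was at 12.24 and 12.48 against 12.33 to 12.41. Fcgr1 was at 10.60 and 10.70 against 9.85 to 10.24, and Mrc1 at 11.25 and 11.84 against 12.26 to 12.42. Markers of other cells were present as well. The 12 epithelial markers averaged 10.95 and 9.13 in Il10ra_mKO and 10.77 to 11.15 in resident WT. The 10 dendritic cell markers averaged 6.90 and 7.22 against 6.52 to 6.76, and moved both ways. Of these 10, 3 were higher and 2 lower at an unadjusted p under 0.05 by limma, where 4.06% and 3.86% of all genes were. Clec9a was at 8.58 and 9.32 against 5.65 to 6.34, and Cd209a at 6.47 and 7.16 against 8.63 to 9.65. The lineage factor Zbtb46 was at 4.74 in all 5 resident arrays. Fibroblast and muscle markers averaged 6.65 and 6.55 against 7.06 to 7.55, and neutrophil markers 6.27 and 5.89 against 5.62 to 5.68. B and plasma cell markers averaged 7.90 and 8.54 against 7.53 to 7.72, and monocyte markers 8.82 and 8.68 against 8.13 to 8.47. Monocyte markers moved both ways too, with 2 of the 10 measured higher and 1 lower at that unadjusted p. F10 was at 9.18 and 8.84 against 5.65 to 6.17, and Fn1 at 8.75 and 8.26 against 9.72 to 10.22. The 11 measured markers of T cells, NK cells and ILC averaged 6.06 and 6.09 against 5.83 to 5.98, and 7 of them lay below the median of all values in every array. The part of these shifts in the results below was not tested. The median over the 10 genes, relative to the WT mean, was 0.93 in Il10ra_mKO array 1 and 1.03 in array 2. In sorted bulk RNA, fewer cells of a type and less RNA per cell cannot be told apart.

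All 10 genes were higher on average in Il10ra_mKO than in resident WT, with a median log2 change of 1.00 and a range of 0.10 to 2.09. Over all genes the median change was 0.00 to 2 decimals, and 48.8% were higher. In 9 of the 10 genes both Il10ra_mKO arrays lay above all 3 WT arrays, where 8.92% of all genes did so and 8.5% had both arrays below. At an unadjusted p under 0.05 by limma 8 of the 10 were higher and 0 lower, where 4.06% of all genes were higher and 3.86% lower (7.92% in all). The same number, 8 of 10, were higher by 1.5-fold or more, where 2.64% of all genes were. With p adjusted over all genes 0 of the 10 passed 0.05 by limma, with adjusted p from 0.123 to 0.457 for those 8, and 1 gene of all genes (0.00502%) passed, which was lower. Scaling all 7 arrays alike changed the count of the 10 from 0 to 4. Quantile normalization did so for Tap1, Tap2, Psmb8 and Psmb9 (limma adjusted p = 0.0171 to 0.0414). Subtraction of each array's median did so for Nlrc5, Tap1, Tap2 and Psmb9 (limma adjusted p = 0.0197 to 0.0357). Calls over all 19938 genes rose as well, from 1 to 114 with quantile normalization and to 146 with medians subtracted.

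**Figure D1:**
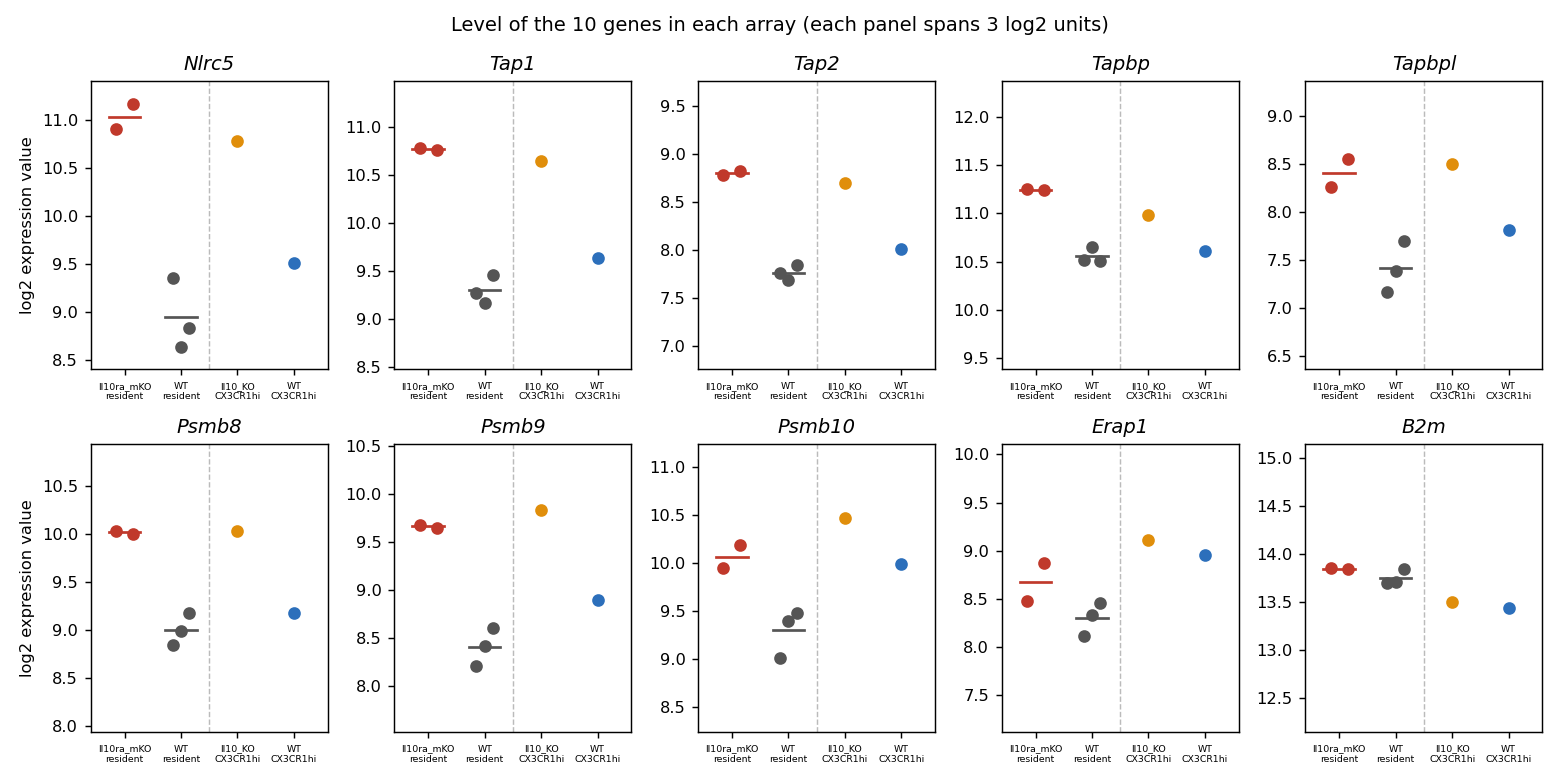
Log2 expression value (y axis) of each of the 10 genes in every array, with Il10ra_mKO and WT resident arrays left of the dashed line and Il10_KO and WT CX3CR1hi arrays right of it. Points are arrays, bars are means of groups with more than 1 array, and every panel spans the same number of log2 units. Both Il10ra_mKO points lie above all resident WT points in every panel except B2m.

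Nlrc5, the transactivator, differed most of the 10. It was at log2 10.90 and 11.17 in the Il10ra_mKO arrays, against 9.36, 8.64 and 8.84 in resident WT. The groups were apart by 1.55 log2 units, and WT array 1 was the highest of its group. The change of 2.09 ± 0.26 (SE) was a 4.26-fold difference (limma adjusted p = 0.257), and it ranked 39 among all genes from the most raised down. Nlrc5 also had 18 further rows in the table, which read the same transcript in the same RNA and are no replicates. In all 19 rows both Il10ra_mKO arrays lay above all 3 WT arrays, with changes of 0.84 to 2.29 and a median of 1.79. Il10ra_mKO array 2 was above array 1 in 18 of the 19 rows, and WT array 1 was the highest WT array in 14. The gene's mean level over the arrays ran from 6.53 to 9.89 between rows, so the separation was seen in dim and in bright rows.

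**Figure D2:**
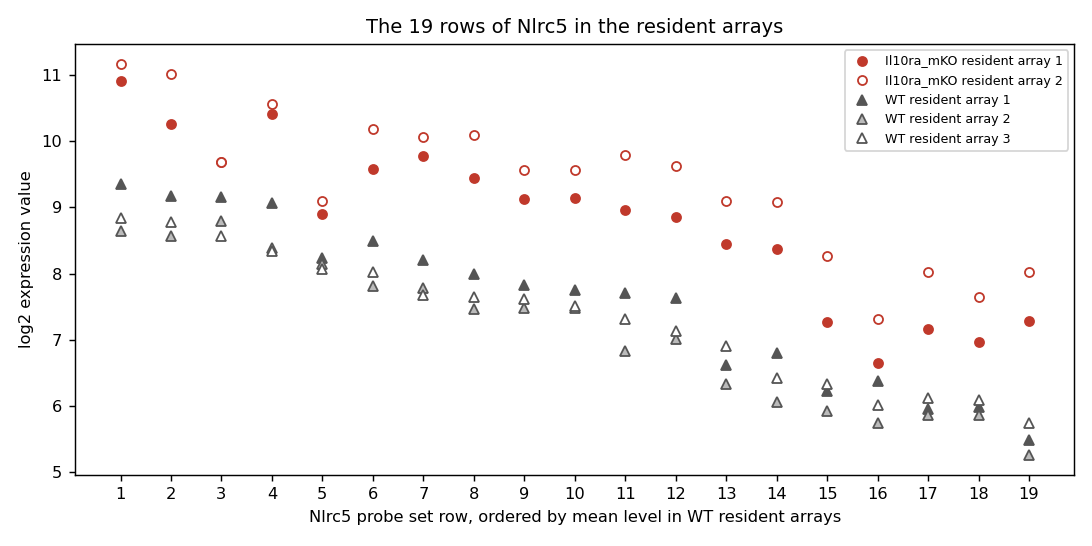
Log2 expression value (y axis) of the 19 Nlrc5 rows (x axis, from the highest to the lowest mean level in WT) in the 5 resident arrays. Circles are the Il10ra_mKO arrays and triangles the WT arrays. Circles stand above triangles in all 19 rows, and the open circles of Il10ra_mKO array 2 are the higher ones in 18.

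The peptide transporter came next. Tap1 was at 10.79 and 10.77 in Il10ra_mKO, against 9.27, 9.18 and 9.47 in WT. The mutant arrays were alike within 0.03 and stood 1.30 above the highest WT array. The difference was 2.77-fold (log2 1.47 ± 0.10, limma adjusted p = 0.159). Tap2, which forms the transporter with Tap1, was at 8.78 and 8.82 against 7.75, 7.69 and 7.84. Its difference was 2.06-fold (1.04 ± 0.062, limma adjusted p = 0.123), smaller than that of Tap1 but with the lowest p and the smallest SE of the 10 genes.

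The peptide editors Tapbp and Tapbpl were both higher. Tapbp, which encodes tapasin and holds class I beside the transporter, was at 11.25 and 11.24 in Il10ra_mKO, against 10.52, 10.65 and 10.51 in WT. The mutant arrays were apart from WT by 0.59, and the difference was 1.61-fold (0.69 ± 0.066, limma adjusted p = 0.208). Tapbpl, the tapasin-related editor that acts outside the loading complex, was at 8.26 and 8.55 against 7.17, 7.39 and 7.70. Its arrays spread more in both groups, and the difference was 1.99-fold (0.99 ± 0.20, limma adjusted p = 0.405).

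All 3 immunoproteasome subunits were higher in both Il10ra_mKO arrays than in any resident WT array. Psmb9, the subunit that stands in for Psmb6, was at 9.67 and 9.65, against 8.21, 8.42 and 8.60 in WT (2.38-fold, 1.25 ± 0.13, limma adjusted p = 0.228). Psmb8, which stands in for Psmb5, was at 10.04 and 9.999 against 8.84, 8.99 and 9.18 (2.02-fold, 1.01 ± 0.12, limma adjusted p = 0.243). Psmb10, which stands in for Psmb7, was at 9.95 and 10.18 against 9.01, 9.40 and 9.48 (1.70-fold, 0.77 ± 0.19, limma adjusted p = 0.457). The gap to the highest WT array was widest for Psmb9, at 1.05, and narrowest for Psmb10, at 0.47.

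The constitutive counterparts differed by 0.06 to 0.27 on the log2 scale. Of the 3, 1 (Psmb6) was higher at an unadjusted p under 0.05, where 4.06% of all genes were, and 2 (Psmb6 and Psmb7) had both Il10ra_mKO arrays above all WT arrays, where 8.92% did. Psmb5 was at 10.79 and 10.78 in Il10ra_mKO, inside the WT values of 10.46, 10.999 and 10.71. Psmb6 was at 9.46 and 9.25 against 9.13, 9.13 and 8.998, a difference of 0.27 ± 0.094 (limma adjusted p = 0.627). Psmb7 was at 9.24 and 9.15 against 9.05, 9.14 and 9.10. The ratio of each immunoproteasome gene to its counterpart therefore differed between genotypes within these arrays. Psmb9 over Psmb6 was 1.98-fold higher in Il10ra_mKO than in WT, Psmb8 over Psmb5 was 1.94-fold higher and Psmb10 over Psmb7 was 1.59-fold higher. In each of these pairs both mutant arrays lay above the 3 WT arrays. Averaged over the pairs the excess of the immunoproteasome was 0.87 on the log2 scale, against a spread between replicates of 0.17 (SD, pooled over the resident groups).

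**Figure D3:**
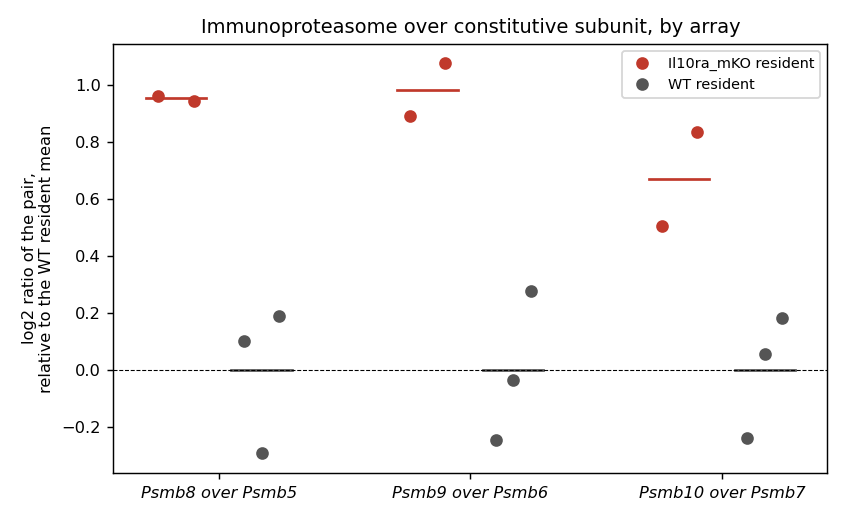
Log2 ratio of each immunoproteasome gene to the constitutive gene whose place its product takes (y axis, relative to the mean of the WT resident arrays), by pair (x axis). Points are the 2 Il10ra_mKO and 3 WT arrays with resident label and bars are group means. Both Il10ra_mKO points lie above the WT points in each pair, between 0.51 and 1.08.

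Tap1 and Psmb9 lie head to head on chromosome 17. Their start sites are 226 bases apart in RefSeq's GRCm38.p6 table, so that 275 bases of their promoter windows are the same DNA read on opposite strands. RefSeq windows of 250 bases before and 50 after the start were held for 7 of the 10 genes and are shown for 3 of them, the shared Tap1 and Psmb9 promoter, Psmb8, and B2m as the member that differed least. Capitals mark matches, on either strand, to the GAS motif TTCNNNGAA of STAT factors, to the interferon response motif GAAANNGAAA, or to CCAAT, the Y box of class I promoters. None of the printed matches overlap.
Tap1, chr17:34187306-34187605, plus strand: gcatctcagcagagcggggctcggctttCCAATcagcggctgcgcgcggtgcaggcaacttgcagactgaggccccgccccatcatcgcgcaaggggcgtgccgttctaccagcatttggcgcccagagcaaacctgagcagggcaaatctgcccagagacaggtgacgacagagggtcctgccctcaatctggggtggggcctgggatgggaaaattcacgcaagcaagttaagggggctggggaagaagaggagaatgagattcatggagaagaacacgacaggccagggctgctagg
Psmb8, chr17:34197945-34198244, plus strand: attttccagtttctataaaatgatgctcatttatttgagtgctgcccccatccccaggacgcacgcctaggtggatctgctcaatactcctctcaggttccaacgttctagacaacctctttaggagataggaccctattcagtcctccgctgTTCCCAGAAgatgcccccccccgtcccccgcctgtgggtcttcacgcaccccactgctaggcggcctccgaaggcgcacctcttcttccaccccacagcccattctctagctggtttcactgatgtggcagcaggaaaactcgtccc
B2m, chr2:122147437-122147736, plus strand: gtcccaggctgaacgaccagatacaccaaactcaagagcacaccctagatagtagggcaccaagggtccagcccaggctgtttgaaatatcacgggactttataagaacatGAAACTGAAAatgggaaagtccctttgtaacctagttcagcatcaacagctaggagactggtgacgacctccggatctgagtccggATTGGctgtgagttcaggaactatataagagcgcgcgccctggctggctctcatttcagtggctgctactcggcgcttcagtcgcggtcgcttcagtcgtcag

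In these letters the Tap1 window held 1 CCAAT, the Psmb8 window 1 GAS motif (TTCCCAGAA), and the B2m window 1 interferon response motif (GAAACTGAAA) with 1 CCAAT on the opposite strand. Over the 7 windows 1 gene had a GAS match, 2 had an interferon response match (B2m and Erap1) and 4 had CCAAT, Tap1 and Psmb9 sharing theirs. Of all 32851 RefSeq windows 8.3% held the GAS motif, 3.44% the interferon response motif and 37.4% CCAAT. A match is a run of letters and not a measured site. No match says only that the letters are not in a window, as for Psmb10.

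Erap1, the aminopeptidase that trims peptides to length, was at 8.47 and 8.87 in Il10ra_mKO, against 8.11, 8.33 and 8.45 in WT. The lower mutant array stood only 0.02 above the highest WT array, and the change of 0.37 ± 0.18 missed the threshold (limma adjusted p = 0.678). It was 0.57 without Il10ra_mKO array 1 and 0.17 without array 2. B2m, the light chain of class I, was at 13.86 and 13.84 against 13.70, 13.71 and 13.84. The groups met at 13.84, and the change was 0.10 ± 0.066 (limma adjusted p = 0.678). By mean level B2m ranked 4 among the 19938 genes, close to the upper end of the scale. How far the array can record a rise at that brightness was not tested.

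The 10 genes also differed in how alike the mutant arrays were. For Tap1, Tap2, Tapbp, Psmb8, Psmb9 and B2m the 2 Il10ra_mKO arrays were within 0.05 log2 units. Array 2 was higher by 0.27 for Nlrc5, 0.29 for Tapbpl, 0.24 for Psmb10 and 0.40 for Erap1. Among the WT arrays the SD was under 0.3 for 9 of the 10 genes and 0.37 for Nlrc5, and WT array 3 was the highest of them for 8 genes. Sample numbers in the titles fall into a run of 54 to 56, with Il10ra_mKO array 1 and WT arrays 1 and 2, and a run of 67 to 68, with Il10ra_mKO array 2 and WT array 3. Within the first run the median change of the 10 genes was 1.02 and within the second 0.84. In both runs 9 of the 10 genes were higher in Il10ra_mKO, and B2m was higher in the first and equal in the second. Tap1 differed by 1.56 and 1.30, Nlrc5 by 1.90 and 2.33, and Psmb9 by 1.36 and 1.05 in these runs.

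In CX3CR1hi cells all 10 genes were higher in the Il10_KO array than in its WT partner, with a median log2 difference of 0.69, where 56.3% of all genes were higher and the median over all genes was 0.03. With 1 array a genotype this difference has no replicate check of its own, and its errors assume that these arrays vary as the resident ones do. At least 1.5-fold higher were 6 of the 10, where 2.7% of all genes were. Nlrc5 was at 10.78 in Il10_KO and 9.52 in WT (2.40-fold), Tap1 at 10.65 and 9.64 (2.01-fold), and Psmb9 at 9.83 and 8.90 (1.91-fold). Psmb8 was at 10.03 and 9.18 (1.80-fold), Tap2 at 8.69 and 8.003 and Tapbpl at 8.497 and 7.81 (both 1.61-fold). The 6 genes with the largest changes in Il10ra_mKO were these same 6.

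The remaining genes differed by less than 1.5-fold in Il10_KO. Psmb10 was at 10.47 in Il10_KO and 9.99 in WT (1.39-fold), and Tapbp at 10.99 and 10.61 (1.30-fold). Erap1 was at 9.11 and 8.95 (1.12-fold), and B2m at 13.50 and 13.44 (1.04-fold). All 19 Nlrc5 rows were higher in Il10_KO, by 0.84 to 1.48 on the log2 scale. Under the assumption on spread, Tap2 and Tap1 passed over all genes by limma (adjusted p = 0.0365 and 0.0496) along with 7.9% of all genes (3.2% higher). At an unadjusted p under 0.05 6 of the 10 were higher by limma, where 10.4% of all genes were and 22% passed in either direction. Neither passed when the 844 genes with the same value in all 5 resident arrays were left out (adjusted p = 0.0972 for both), an alternative chosen after seeing the data. The count of 2 also became 0 without WT resident array 1 or 2 or either Il10ra_mKO array, and 1 without WT resident array 3. Dendritic cell markers went both ways here too. Clec9a was at 8.44 in Il10_KO and 5.80 in WT, and Ccr7 at 8.44 and 6.38. Cd209a was at 5.69 and 8.12, and Dpp4 at 8.67 and 9.15. The epithelial markers averaged 11.01 in Il10_KO and 11.53 in WT, and those of T cells, NK cells and ILC 6.05 and 5.68. Their part was not tested.

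**Figure D4:**
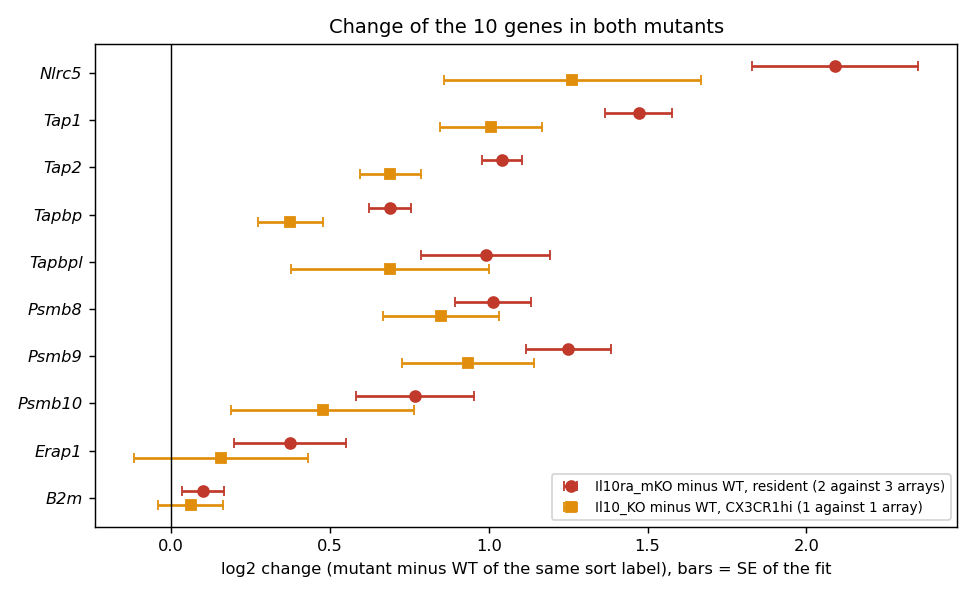
Log2 change (x axis) of each of the 10 genes (y axis) for Il10ra_mKO minus WT in resident arrays (circles) and Il10_KO minus WT in CX3CR1hi arrays (squares). Bars are standard errors of the fit, which for the squares assume the spread of the resident arrays. Nlrc5 is farthest to the right in both, at 2.09 and 1.26, and B2m nearest to 0, at 0.10 and 0.06.

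Both mutants had their own WT arrays, so the changes can be set beside each other. Raised at least 1.5-fold in both were 6 of the 10 genes, where 1.41% of all genes were. The change was larger in Il10ra_mKO than in Il10_KO for 10 of 10 genes, by 0.04 to 0.83 on the log2 scale. As a contrast of its own, that difference passed the adjusted threshold for 0 of the 10 by limma (adjusted p = 0.274 to 0.984, where 4.7% of all genes passed). At an unadjusted p under 0.05 only Tap2 did (0.35 ± 0.11, limma adjusted p = 0.274, where 15.8% of all genes did), a count that was 0 without either Il10ra_mKO array and 2 without WT resident array 3. A smaller response in Il10_KO is therefore not shown, and sort label and RNA kit differ between the comparisons as well.

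The rest of the pathway, counted from lists chosen by function with earlier results known, differed in parts. Among the 10 activators, inhibitors and assembly factors of the proteasome 4 were higher at an unadjusted p under 0.05 in Il10ra_mKO and 0 lower, where 4.06% of all genes were higher and 3.86% lower. Psme1 and Psme2 form the PA28 cap, which interferon-gamma induces. Psme1 was at 10.30 and 10.33 against 9.48, 9.73 and 9.89 in WT (1.54-fold, limma adjusted p = 0.44). Psme2 was at 10.97 and 10.72 against 9.92, 10.34 and 10.34 (1.57-fold, limma adjusted p = 0.521). Pomp, the assembly chaperone of the core particle, was 1.44-fold higher (limma adjusted p = 0.595). The fourth, Psmg4, was chosen after its values were seen and was 0.42 higher on the log2 scale.

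The core and the regulatory particle shifted less. All 13 other core subunits were higher, by a median of 0.19 and at most 0.42, where 48.8% of all genes were. Of the 13, 4 passed an unadjusted p under 0.05, where 4.06% of all genes were higher at that p. Psma4 was 1.33-fold, Psma3 1.27-fold and Psma5 1.26-fold higher (limma adjusted p = 0.6, 0.484 and 0.514). Of 17 subunits of the 19S regulator 16 were higher, by a median of 0.14, where 48.8% of all genes were. Of the 17, 0 passed an unadjusted p under 0.05 by limma, where 7.92% of all genes did. In 2 of them both Il10ra_mKO arrays lay above all WT arrays, where 8.92% of all genes did so. Psmd7 was farthest at 0.24, but differed by 0.455 in the run of 54 to 56 and 0.0 in that of 67 to 68. The median of the 3 constitutive catalytic subunits was 0.10, against 1.00 for the 10 genes.

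Among class I heavy chains, H2-K1 and H2-D1 share their rows with each other, H2-T23 shares its row with another gene, and none of these rows was used. Of the 11 heavy chains with a row of their own, 2 were higher at an unadjusted p under 0.05 and 0 lower, where 4.06% of all genes were higher and 3.86% lower. The median was 0.17, in a list where H2-Q10, H2-Bl, H2-M5, H2-M9 and H2-M10.1 lay below the median of all values in every array. Probes of such close relatives can share signal. H2-Q4, a gene of the Q region, was at 10.60 and 10.72 against 9.49, 9.27 and 9.55 in WT (2.32-fold, limma adjusted p = 0.208). H2-M3, which presents formylated peptides, was 1.37-fold higher (limma adjusted p = 0.576). In Il10_KO H2-Q4 was 0.90 and H2-M3 0.76 above WT on the log2 scale. At least 1.5-fold higher in both mutants were 3 of the 11, where 1.41% of all genes were. Besides H2-Q4 these were H2-T24 and H2-M2, chosen after their values were seen. H2-T24 was 0.73 higher in Il10ra_mKO and 0.72 in Il10_KO, and H2-M2 0.66 and 0.64. Neither passed an unadjusted p under 0.05 in Il10ra_mKO by limma, and the resident groups overlapped for H2-M2.

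Of 7 class I-like molecules 2 were higher at an unadjusted p under 0.05, where 4.06% of all genes were. Procr, the endothelial protein C receptor, whose fold resembles class I, was at 9.48 and 8.95 against 6.29, 5.84 and 6.18 (8.65-fold, limma adjusted p = 0.163). Cd1d1, which presents lipids to NKT cells, was at 7.68 and 7.28 against 5.96, 6.16 and 6.31 (2.53-fold, limma adjusted p = 0.258). They were 2.45 and 1.28 higher in Il10_KO on the log2 scale. The median of this list was 0.03, and its Cd1d2, Azgp1 and H60b lay below the median of all values in every array.

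The general chaperones of the endoplasmic reticulum did not show the shift of the dedicated loading genes. Of 12 such genes 0 passed an unadjusted p under 0.05 by limma, where 7.92% of all genes did. The median was 0.01 and 6 of the 12 were higher, where 48.8% of all genes were. Calr was at 11.99 and 12.19 in Il10ra_mKO against 11.96, 12.06 and 12.10 in WT, and Canx at 12.51 and 12.61 against 12.51, 12.62 and 12.78. Pdia3, the disulfide isomerase of the loading complex, was at 11.91 and 12.09 against 11.69, 11.94 and 12.26. The groups overlapped for all 3, and Hsp90b1 lay farthest from 0, at -0.39 ± 0.29. Of 7 cytosolic and endosomal peptidases only Lap3, a leucine aminopeptidase that interferon-gamma induces, passed an unadjusted p under 0.05 (7.92% of all genes did), at 10.104 and 10.085 against 8.89, 9.23 and 9.36 (1.91-fold, limma adjusted p = 0.356).

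**Figure D5:**
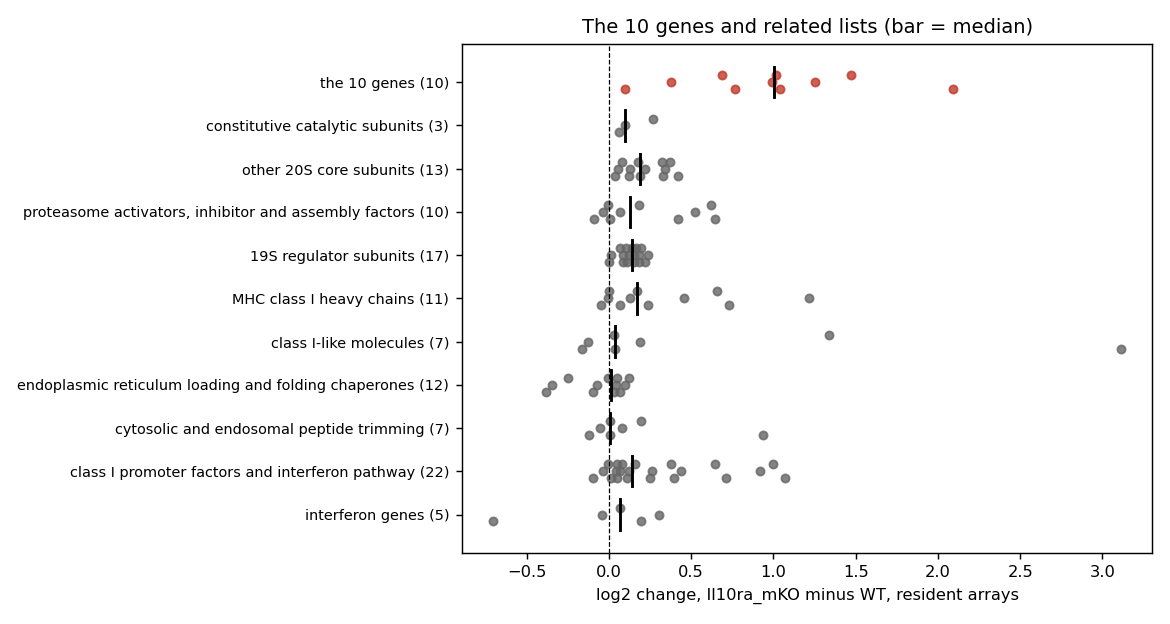
Log2 change, Il10ra_mKO minus WT in resident arrays (x axis), of the 10 genes and of the genes of each related list (y axis, number of measured genes in brackets). Points are genes and bars the median of a list. The median is 1.00 for the 10 genes and between 0.01 and 0.19 for the other lists. Several of the other lists hold genes below the median of all values in every array, while the 10 genes lie above it.

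Among 22 factors of class I promoters and interferon signalling the median was 0.14. At an unadjusted p under 0.05 7 were higher and 0 lower, where 4.06% of all genes were higher and 3.86% lower. Irf1, which binds interferon response motifs, was at 11.79 and 11.37 against 10.84, 10.42 and 10.27 (2.10-fold, limma adjusted p = 0.428). Stat2 was 2.00-fold and the kinase Jak2 1.89-fold higher (limma adjusted p = 0.416 and 0.585). Rfx5, a subunit of the factor that recruits Nlrc5 to class I promoters, was at 7.81 and 8.04 against 7.57, 7.42 and 7.61 (1.31-fold, limma adjusted p = 0.491). Ciita, the class II counterpart of Nlrc5, Socs1 and Atf1 were the remaining 3, chosen after their values were seen, at 0.64, 0.71 and 0.16 on the log2 scale. Socs1 had the lowest p of the 22 (limma adjusted p = 0.0902) and was 0.98 higher in Il10_KO. It was dim, at 4.66 to 5.65, below the median of all values in every array. The receptor chains Ifngr1 and Ifngr2 were at 0.11 and 0.05. Of 5 interferon genes 0 passed an unadjusted p under 0.05, where 7.92% of all genes did. Among them, Ifng and Ifna4 lay below the median of all values in every array, and Ifnb1 and Ifna2 did so in some arrays. Whether the array can record a change in genes this dim was not tested, so the count does not show that they were unchanged. Ifnl2 lay farthest from 0, at -0.70 ± 0.29 (limma adjusted p = 0.678).

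Over the 7 arrays, the genes with centred log2 values nearest to those of Tap1 were Gbp8, an interferon-inducible GTPase, H2-Q4 and Tnfrsf14, with root mean square differences of 0.10, 0.13 and 0.14 against a spread of 0.68 in Tap1 itself. Psmb9, which shares the Tap1 promoter, came in place 8. Nearest to Psmb9 were Tnfrsf14, Gsap and H2-Q4 (0.12 to 0.14), followed by Psmb8 and Tap1 in places 4 and 5. Nearest to Nlrc5 were Trpm2, Ddhd1 and Il18bp (0.15 to 0.18), with Tap1 in place 19. B2m, whose own spread was 0.16, was nearest to Serpina3a, Ppp2r2c and Cibar2, genes that lay below log2 5 in every array. These profiles cross the sort labels, whose scales differed. The highest value of an array was 13.78 and 13.88 in CX3CR1hi and 14.62 to 14.78 in resident arrays. The lower quartile was 4.64 and 4.67 against 4.97 to 5.06. The part of this step in the likeness of profiles was not tested.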

How the data were processed

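Total RNA of 7 sorted macrophage samples was labelled with biotin and read on Affymetrix arrays. The deposited values are log2 expression values per probe set, made with RMA and Partek per the submitters' processing notes. For the tool versions, the build, and any joint normalization of the arrays, nothing is stated in the labels. Of 35399 rows 21789 name 1 gene symbol, and the brightest row stood for a gene, giving 19938 genes (999 with several rows). The 10 genes had 28 rows, 19 of them for Nlrc5, and 2 rows that name a further gene beside Tapbp were not used. limma 3.58.1 in R 4.3.3 was fitted with 1 mean for each of the 4 groups and an eBayes variance trend. Tests were two-sided with Benjamini-Hochberg adjustment over all genes at 0.05, on 3 residual degrees of freedom. The number of arrays limits the precision. Contrasts were Il10ra_mKO minus WT (resident), Il10_KO minus WT (CX3CR1hi) and their difference. The fit was tested on simulated data. Arrays were numbered in accession order, which pairs nothing.

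Named genes were the 10, Il10ra, Il10, Psmb5, Psmb6, Psmb7, a fixed set of loading and interferon genes, from each other list the 3 largest changes in each direction past an unadjusted p of 0.05 (or the largest change where none passed), and the 3 genes nearest in centred profile to Nlrc5, Tap1, Psmb9 and B2m. Genes and lists were chosen with earlier results of these data known. Alternatives were no trend, robust moderation, a filter on dim genes (10558 kept), row means, quantile or median scaling, resident arrays only, the run of sample numbers as a block, and leaving out arrays.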

Additional observations from a re-analysis of the deposited data

How the results depend on the processing

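No paired analysis was possible because the labels give no replicate numbers that match single arrays across groups. A fit with the run of sample numbers (54 to 56, 67 to 68) as a block could be made, and in it 0 of the 10 genes passed an adjusted and 8 an unadjusted p, with a median change of 0.96. In Il10ra_mKO against WT the count of the 10 genes past an adjusted p of 0.05 by limma was 0, and it was 4 with quantile normalization and 4 with array medians subtracted. It stayed at 0 under the other alternatives, leave-one-out included (0 to 0), while 6 to 9 passed an unadjusted p with 1 array left out, against 8 with all. The median change was 0.90 to 1.09 and the excess of the immunoproteasome 0.79 to 0.98 with 1 array left out. In Il10_KO against WT the count past an adjusted p was 2, and 1 without the trend, with robust moderation or with row means. It was 0 with the filter on dim genes, quantile normalization, array medians subtracted or tied genes left out, and 0 to 1 with 1 resident array left out, when 5 to 6 passed an unadjusted p. The median there (0.69) and the excess (0.60) do not use resident arrays. For the difference between mutants the unadjusted count was 1, and 2 without the trend, 0 with the filter, quantile normalization, array medians subtracted or tied genes left out, and 0 to 2 with 1 array left out. The causes were not tested. Over all genes, adjusted calls in Il10ra_mKO were 1, against 4 without the trend, 12 with the filter, 114 with quantile normalization, 146 with medians subtracted, 8 without tied genes, 0 with the run as a block, and 0 to 267 with 1 array left out. In Il10_KO they were 1576, against 758 without the trend, 1043 with robust moderation, 2 with the filter, 21 with quantile normalization, 31 with medians subtracted, 45 without tied genes and 559 to 2788 with 1 array left out. For the difference they were 937, against 30, 387, 1, 8, 17 and 10 in the same order, 0 with the run as a block and 0 to 2200 with 1 array left out. Small changes turned sign. In Il10ra_mKO, Pdia3 was -0.0169 with quantile normalization and -0.0229 with the run as a block. With 1 array left out, Pdia3 was -0.1046 to 0.1811, Il10 -0.0249 to 0.5252 and Psmb5 -0.072 to 0.1966, each lowest without WT array 1, and Calr was -0.0485 (without Il10ra_mKO array 2) to 0.1463. In Il10_KO, quantile normalization put Psma3 at -0.0625 and Psmd7 at -0.0075, and subtracting medians put Canx at 0.0286. None of the 10 genes turned sign in either mutant under the alternatives run, though B2m in Il10_KO was at 0.0 with quantile normalization. The number of arrays limits all of these tests.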
